A study of Oryctolagus cuniculus with 20 samples.

Results

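The 7 genes described here encode acute inflammatory mediators of the vessel wall. They are the cytokines IL6 and OSM (oncostatin M), the chemokines CCL2, CCL4 and CXCL8, the inducible prostaglandin synthase PTGS2 and the long pentraxin PTX3. They were taken by name from the 23669 genes of a table of rabbit (Oryctolagus cuniculus) vessels, OSM through its NCBI gene number, and all 7 were among the 8657 genes tested, those that reached 1 FPKM in 4 or more libraries. FPKM is the number of fragments per kilobase of transcript, scaled to the size of the library. The libraries came from 5 groups of 4. Graft day 14 was common carotid artery that had been placed in a vein for 14 days, and control day 14 was the carotid of the other side, left unoperated. Graft day 30 and control day 30 were the same pair taken 30 days after surgery, and the vein group was unoperated external jugular vein. The labels give the same treatment word for all groups, no strain, age or sex, and a cell line name, HASMC, on every sample although the samples are tissue. They number biological replicates without saying that each is a different animal, so p-values measure the spread between these samples. The genes had been chosen from their levels in grafts and controls and from the differences among the control day 30 libraries, so those contrasts are given as descriptions and without a test.

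As background, IL6 and OSM are secreted cytokines that share the signalling chain gp130 and act through JAK and STAT proteins. CXCL8 draws neutrophils, CCL2 draws monocytes through CCR2, and CCL4 draws T cells and macrophages. PTGS2 makes the precursor of the prostaglandins, and PTX3 is a soluble pattern recognition protein that binds complement C1q, FGF2 and TNFAIP6. NF-kappa-B induces most of these genes in activated macrophages, endothelium and smooth muscle. Several of their transcripts are short-lived, and ZFP36 is one of the proteins that destabilise them.

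No read counts were analysed here, so depth is known only in relative terms. Between 6759 and 7740 genes reached 1 FPKM in a library, and the smallest steps between low FPKM values put the relative depth of the libraries at 0.821 to 1.11. Some libraries stood apart in their spread. For 1264 genes averaging more than 30 FPKM, the libraries of a group typically differed by a log2 SD of 0.324 (graft day 14) or 0.0732 (control day 14). At day 30 this median SD was 0.189 for grafts and 0.198 for controls, and for vein it was 0.135. The control day 14 libraries were therefore nearly identical, and counts are also given with them counted as 1 sample. In each of the other groups, 1 library could be matched closely by weighting the remaining 3: graft day 14 replicate 3, graft day 30 replicate 4, control day 30 replicate 2 and vein replicate 4. Smooth muscle markers, 7 of 8 found and 1 of these at 0 throughout, summed to 608 to 923 FPKM in graft day 14 and 8240 to 8750 FPKM in control day 14. They summed to 1340 to 1770 FPKM in graft day 30, 6030 to 8650 FPKM in control day 30 and 3550 to 3820 FPKM in vein, and so were present in every group.

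At day 14 every mediator was higher in all 4 grafts than in any control. In bulk tissue a change in the number of cells of a type and a change in RNA per cell cannot be told apart. Their levels differed by group and by gene: CCL2 and CXCL8 led in the day 14 grafts, and CCL2, IL6 and PTGS2 led in the day 30 grafts. The day 30 controls were split. Replicates 2 and 3 held IL6, CCL2, CXCL8, PTGS2 and PTX3 at levels at or above most grafts, while replicates 1 and 4 lay lower for these genes. The 7 mediators summed to 76.16 to 150.4 FPKM in graft day 14 and 2.35 to 3.7 FPKM in control day 14. They summed to 557.4, 102.7, 184.9 and 256.6 FPKM in graft day 30 (replicates 1 to 4 in all such lists) and to 52.14, 454.7, 827.9 and 35.92 FPKM in control day 30.

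**Figure D1:**
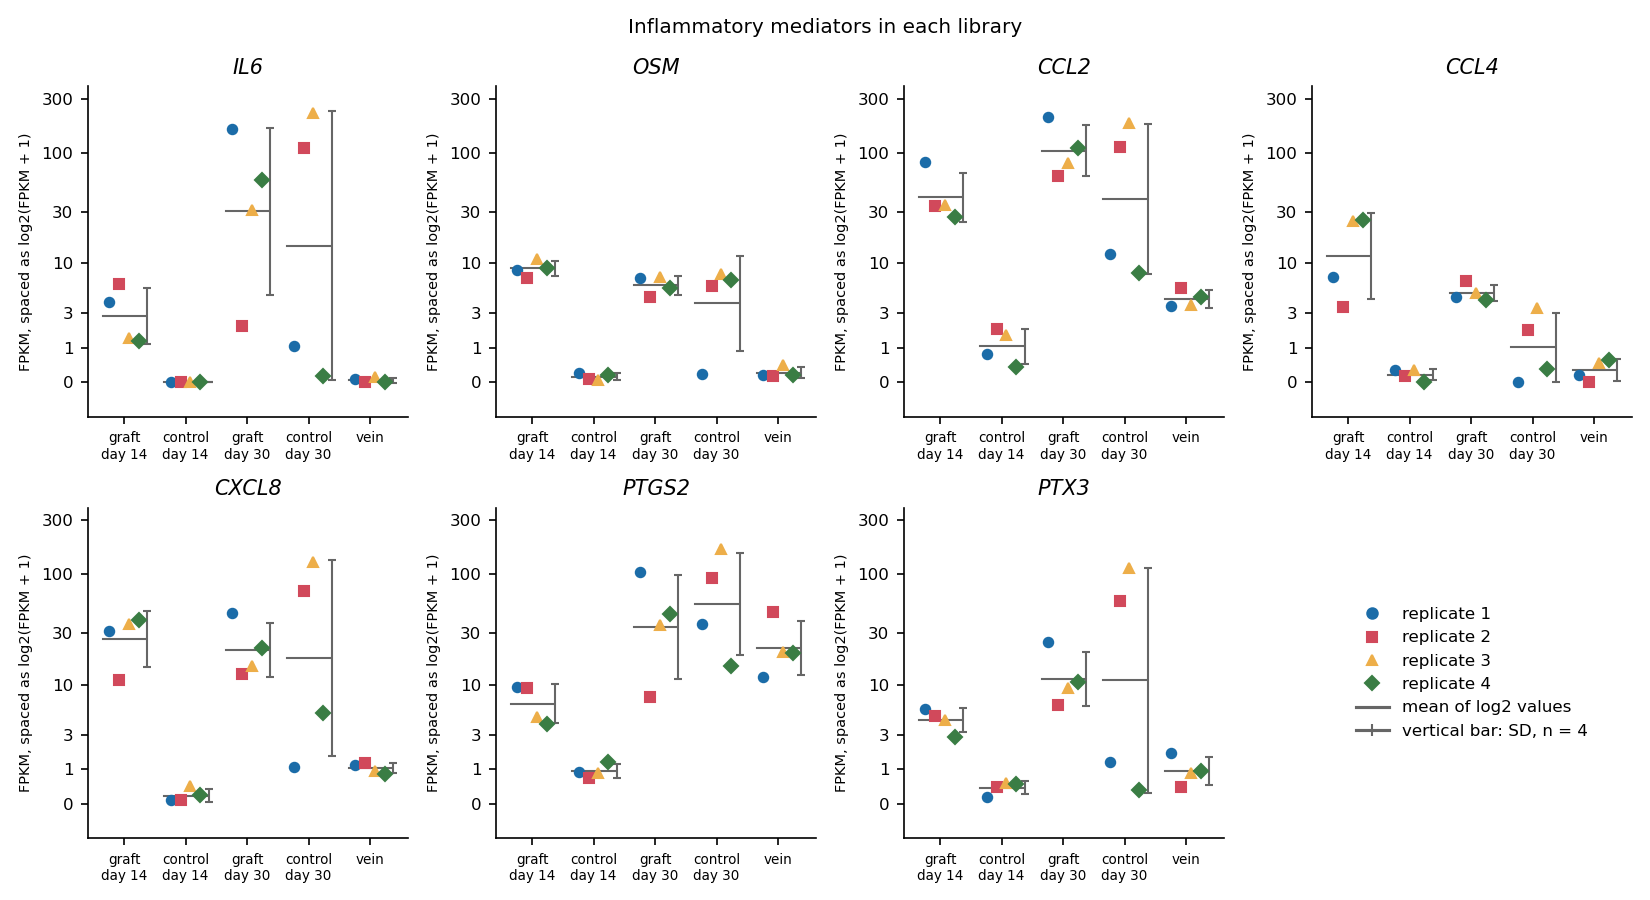
FPKM of the 7 mediators in each of the 20 libraries, on an axis spaced as log2(FPKM + 1), with graft and control side by side for each day and vein last. Points are libraries coded by replicate number, horizontal lines are means of log2 values and vertical bars are SD (n = 4). At day 14 no graft overlaps a control, and at day 30 control replicates 2 and 3 stand with or above the grafts for every gene but CCL4.

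IL6, the cytokine that drives the hepatic acute phase response, was low in the day 14 grafts and listed at 0 in their controls. It was 4.06, 6.2, 1.43 and 1.32 FPKM in graft day 14, against 0 in each control day 14 library. The groups did not overlap, and no fold is given here against a group listed at 0. Log2 differences of IL6 against control day 14 that appear below depend on the pseudocount. At day 30 it was 160.77, 2.11, 31.06 and 57.92 FPKM in grafts, against 1.08, 111.14, 224.63 and 0.13 FPKM in controls. Both day 30 groups thus held libraries above 100 FPKM and libraries at or under 2.11 FPKM, and they overlapped across almost their whole range. Graft minus control at day 30 was 1.00 on the log2(FPKM + 1) scale (SE 1.37), a difference smaller than its error. Vein held 0.06, 0, 0.11 and 0 FPKM, as low as control day 14. Among the 5 groups ranked by mean, the one gap without overlap lay between graft day 14 and vein.

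OSM, a cytokine of macrophages, neutrophils and T cells, was of like level in all 8 grafts. It was 8.64, 7.24, 10.96 and 9.03 FPKM in graft day 14, against 0.2, 0.08, 0.04 and 0.17 FPKM in control day 14. The groups did not overlap, with a log2 difference of 3.14 (SE 0.42). The day 30 levels were 7.2, 4.57, 7.26 and 5.62 FPKM in grafts, against 0.19, 6, 7.81 and 6.8 FPKM in controls. Here control replicate 1 alone was low and the other 3 controls overlapped the grafts, unlike IL6, for which replicate 4 was low as well. Vein held 0.13 to 0.42 FPKM. Of its 2 transcripts, 1 gave at least 98.9% of the gene's mean in every group. LIF, a cytokine of the same family and the gene next to OSM in the RefSeq table of rabbit assembly mOryCun1.1, was picked for that position. It reached at most 0.2 FPKM in the day 14 grafts and 0 in their controls, and 0.35 to 1.83 FPKM in the day 30 grafts and 0.45 to 1.26 FPKM in their controls.

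In the list of IL6 family signalling, the chain through which IL6 and OSM act, 17 of 19 genes were found and 11 tested. At day 14, 5 were higher and 1 lower in grafts by limma at an adjusted p under 0.05, against 36.5% of all genes higher and 17% lower (53.5% either way). At day 30, 3 were higher and 1 lower, against 26% of all genes higher and 11.6% lower (37.6% either way). The day 30 counts were 0 and 1 under TPM scaling and 5 and 0 without control day 30 replicates 2 and 3. Nothing particular to the list is read from these counts. SOCS1, a feedback inhibitor of JAK kinases, was 5.93, 2.82, 2.36 and 2.37 FPKM in graft day 14, against 0.31 to 0.51 FPKM in control day 14 (log2 difference 1.52, SE 0.31, adjusted p = 0.000402). It was 3.39 to 11.52 FPKM in graft day 30, against 1.58 to 3.8 FPKM in control day 30 (log2 difference 1.00, SE 0.31, adjusted p = 0.0153, and 0.0635 without the 4 libraries near a weighted mean). BCL3, an atypical I-kappa-B protein, was higher in grafts by 2.49 at day 14 (SE 0.47, adjusted p = 0.000236). At day 30 it was 9.7 to 14.43 FPKM in grafts, against 1.57, 9.98, 17.26 and 1.34 FPKM in controls, the same split of replicates 2 and 3 from 1 and 4 that IL6 showed. TYK2, a kinase of these receptors, was higher in grafts by 1.07 at day 14 (adjusted p = 6.83e-07) and by 0.67 at day 30 (adjusted p = 0.000224). STAT3, the main transducer of IL6, was lower in grafts, at 15.08 to 28.4 FPKM in graft day 14 against 36.02 to 43.68 FPKM in control day 14 (log2 difference -0.87, SE 0.21, adjusted p = 0.00175, and 0.0827 with control day 14 as 1 sample). At day 30 its difference was -0.57 (SE 0.21, adjusted p = 0.037), which missed the threshold without control replicates 2 and 3 (adjusted p = 0.473) and without the 4 libraries near a weighted mean (adjusted p = 0.174). IL6ST, which encodes gp130, and IL11RA were listed at 0 in all 20 libraries, and OSMR at no more than 0.24 FPKM. These 3 genes were looked up after values had been seen, and a listed 0 may be a failed estimate.

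CCL2 was the most abundant mediator in both graft groups by mean FPKM. It was 83.88, 33.77, 34.21 and 26.88 FPKM in graft day 14, against 0.76, 1.9, 1.58 and 0.36 FPKM in control day 14. All grafts were far above all controls, with replicate 1 standing above the other grafts and a log2 difference of 4.33 (SE 0.73). Its day 30 levels were 208.4, 62.89, 81.91 and 111.59 FPKM in grafts, against 12.18, 111.83, 182.35 and 8.05 FPKM in controls. The groups overlapped through control replicates 2 and 3, and the log2 difference was 1.42 (SE 0.73). Without those 2 controls, an alternative added after seeing the data, it was 3.27. Vein held 3.62 to 5.7 FPKM, above every control day 14 library and below every graft. CCL2 thus had 2 gaps without overlap in the order of its group means, on either side of vein.

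CXCL8, the neutrophil chemokine, followed CCL2 at day 14. It was 31.25, 11.12, 35.98 and 39.45 FPKM in graft day 14, against 0.07, 0.07, 0.42 and 0.19 FPKM in control day 14. The groups were wholly separate, with the largest day 14 log2 difference of the 7 genes, 4.55 (SE 0.90). At day 30 it was 45.77, 12.75, 15.12 and 22.06 FPKM in grafts, against 1.1, 71.51, 129.78 and 5.24 FPKM in controls. The 2 highest values of all 20 libraries were thus control replicates 3 and 2, and the log2 difference was 0.24 (SE 0.90), or 2.61 without them. Vein held 0.83 to 1.29 FPKM, above all of control day 14 and below all grafts. Of 11 neutrophil markers 8 were found, 2 of them at 0 everywhere, and they summed to 80.9 to 157 FPKM in graft day 14 and 360 to 408 FPKM in control day 14, mostly from S100A8 and S100A9. CSF3R, a defining neutrophil receptor, was 0 to 1.8 FPKM in graft day 14 and 0.4 to 0.96 FPKM in control day 14. Neither S100A8 nor S100A9 was called (limma adjusted p = 0.0818 and 0.0625). FPR1, a listed marker picked after its values were seen, went the other way. It was 2.09 to 7.33 FPKM in graft day 14, against 0.33 to 1.07 FPKM in control day 14 (log2 difference 1.89, SE 0.34, adjusted p = 0.000135). Of 4 neutrophil markers tested, 1 was higher and 0 lower, or 1 and 2 without control day 30 replicates 2 and 3. Of all genes, 36.5% were higher and 17% lower. The part of neutrophils in the CXCL8 levels was not tested.

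CCL4 was the one mediator whose day 30 grafts all lay above all controls. It was 7.25, 3.58, 24.72 and 25.41 FPKM in graft day 14, against 0.27, 0.14, 0.29 and 0 FPKM in control day 14, a log2 difference of 3.44 (SE 0.49). Grafts 3 and 4 were the high ones. The levels of day 30 were 4.54, 6.61, 4.99 and 4.25 FPKM in grafts, against 0, 1.84, 3.46 and 0.31 FPKM in controls, a log2 difference of 1.58 (SE 0.49). The groups did not overlap, and vein (0 to 0.58 FPKM) lay with the low controls. Macrophage markers, 9 of 10 found, summed to 272, 197, 477 and 527 FPKM in graft day 14 and 8.17 to 9.98 FPKM in control day 14. Grafts 3 and 4 thus stood highest in both. These libraries were much alike: over genes averaging at least 10 FPKM, the best weighting for replicate 3 put 0.8 on replicate 4. For replicate 4 the best weighting put 1.0 on replicate 3, so they may not be separate observations. CD68, a defining macrophage marker, was listed at 0 in all controls and veins. A listed 0 may be a failed estimate, and the macrophage sum was not 0 in those libraries. In vein it was 28.1 to 55.1 FPKM, mostly from CD14 and MRC1. At day 30 the macrophage sum was 142 to 274 FPKM in grafts and 4.84 to 25.1 FPKM in controls. The part of macrophages in the CCL4 level was not tested.

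Of the other chemokines and chemokine receptors, 24 of 37 were found and 16 tested. At day 14, 10 were higher in grafts and 0 lower, and at day 30, 9 were higher and 0 lower, against the 36.5% and 26% of all genes that were higher. With control day 14 counted as 1 sample the day 14 count was 5. No called gene of the 6 pathway lists changed sign under 3 other scalings. CXCR4, a homing receptor of leukocytes, was 31.14 to 45.41 FPKM in graft day 14, against 0.17 to 0.61 FPKM in control day 14 (log2 difference 4.91, SE 0.44, adjusted p = 5.52e-08). CCL11, the eosinophil chemokine encoded close to CCL2 in the same RefSeq table, was 1.75 to 3.61 FPKM in graft day 14 and listed at 0 in control day 14 (adjusted p = 1.11e-06). CCL21, a lymphoid chemokine, was 250.5 to 335.1 FPKM in graft day 30, against 6.34, 64.45, 125.3 and 17 FPKM in control day 30 (log2 difference 3.23, SE 0.57, adjusted p = 0.000198), so control replicates 2 and 3 were again the higher controls. ACKR1, the chemokine-scavenging receptor of venules, was 31.14 to 41.57 FPKM in graft day 30, against 0.83 to 5.26 FPKM in control day 30 (log2 difference 3.38, SE 0.26, adjusted p = 1.82e-08). Its highest levels were in vein, at 103.8 to 160.5 FPKM. CX3CL1, the endothelial chemokine fractalkine, was picked after its values were seen: it was 4.59 to 7.37 FPKM in graft day 30, against 6.31, 56.74, 116.8 and 4.05 FPKM in control day 30.

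PTGS2 was the mediator with a high level in unoperated vein. It was 9.57, 9.34, 4.73 and 3.98 FPKM in graft day 14, against 0.91, 0.69, 0.85 and 1.33 FPKM in control day 14. The groups did not overlap, with a log2 difference of 1.95 (SE 0.69). At day 30 it was 105.59, 7.53, 35.24 and 44.57 FPKM in grafts, against 36.29, 93.73, 166.14 and 15.08 FPKM in controls. The groups overlapped, and PTGS2 was the one mediator with a negative difference of mean log2(FPKM + 1) at day 30, -0.67 (SE 0.69), within its error. By mean FPKM, IL6, CXCL8 and PTX3 were lower in the day 30 grafts as well. Even the 2 low controls of day 30, replicates 1 and 4, lay above every control day 14 library. Vein held 11.91, 46.51, 20.38 and 19.91 FPKM, above all day 14 grafts. One of its 2 transcripts gave 53.4% of the gene's mean in day 14 grafts and 48.1% in day 14 controls, where its level ran from 0.01 to 0.73 FPKM and the share differed widely between libraries. It gave 63% in day 30 grafts, 71.7% in day 30 controls and 60% in vein.

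Of 24 other genes listed for the prostanoid pathway 18 were found and 14 tested. At day 14, 5 were higher and 3 lower in grafts, against 36.5% of all genes higher and 17% lower. At day 30, 5 were higher and 2 lower (3 and 3 under quantile scaling), against 26% and 11.6% of all genes. Nothing particular to the list is read from these counts. PTGS1, the constitutive counterpart of PTGS2, was lower in grafts on both days. It was 2.25, 2.46, 1.39 and 1.25 FPKM in graft day 14, against 13.81 to 14.67 FPKM in control day 14 (log2 difference -2.44, SE 0.21, adjusted p = 2.91e-08). It was 4.8 to 7.68 FPKM in graft day 30, against 11.31 to 20.61 FPKM in control day 30 (log2 difference -1.23, SE 0.21, adjusted p = 0.000147). PTGER4, a receptor of prostaglandin E, was 9.83 to 11.13 FPKM in graft day 14, against 1.49 to 1.82 FPKM in control day 14 (log2 difference 2.12, SE 0.19, adjusted p = 3.89e-08), and was also higher at day 30 by 1.83 (adjusted p = 5.37e-07). LTA4H, an enzyme of leukotriene synthesis, was higher by 1.61 and 1.18 on the same days (adjusted p = 1.28e-07 and 1.02e-05), and thromboxane synthase TBXAS1 by 1.72 and 0.83 (adjusted p = 9.16e-07 and 0.00273). PTGES, the inducible prostaglandin E synthase that works beside PTGS2, was 7.52 to 9.07 FPKM in graft day 14 and 2.71 to 5.16 FPKM in control day 14. Its difference was not called on either day. In vein it was 18.43 to 27.01 FPKM, higher than in both control groups by 1.95 (SE 0.38, adjusted p = 0.000607). PTGS2 in vein averaged 24.7 FPKM, above the 0.945 FPKM of control day 14 but below the 77.8 FPKM of control day 30, whose range it overlapped. In the comparison of vein with both control groups, 8 of the 14 genes were higher and 1 lower, against 25.2% of all genes higher and 12% lower.

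PTX3 was low in the day 14 grafts and spread widely at day 30. It was 5.75, 4.91, 4.39 and 2.87 FPKM in graft day 14, against 0.14, 0.41, 0.52 and 0.48 FPKM in control day 14. The groups did not overlap, with a log2 difference of 1.96 (SE 1.00, an error that carries the wide day 30 spread). Day 30 levels were 25.11, 6.27, 9.28 and 10.57 FPKM in grafts, against 1.3, 58.62, 113.71 and 0.31 FPKM in controls. All 4 grafts lay in the gap between the low and the high controls, and the log2 difference was 0.033 (SE 1.00), or 2.82 without control replicates 2 and 3. Vein held 0.4 to 1.78 FPKM. Among its partners and acute phase proteins, 18 of 26 were found and 8 tested, with 2 higher and 3 lower in grafts at day 14, against 36.5% of all genes higher and 17% lower. At day 30, 2 were higher and 2 lower, against 26% and 11.6% of all genes, or 4 and 1 without control day 30 replicates 2 and 3. TNFAIP6, which works with PTX3 in the hyaluronan matrix, was 39.7 to 51.12 FPKM in graft day 14, against 2.09 to 3.55 FPKM in control day 14 (log2 difference 3.68, SE 0.64, adjusted p = 9.37e-05). At day 30 it was 35.41 to 88.15 FPKM in grafts, against 3.02, 29.89, 56.45 and 2.69 FPKM in controls (log2 difference 2.04, SE 0.64, adjusted p = 0.0167). C1QC, a chain of C1q and a macrophage product, was higher in grafts by 3.34 and 3.02 (adjusted p = 2.64e-08 and 2.1e-07). FGF2 was 0 to 1.38 FPKM in graft day 14, against 7.99 to 9.95 FPKM in control day 14 (log2 difference -2.55, SE 0.31, adjusted p = 2.14e-06).

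All 7 mediators were higher without overlap at day 14, as were 33.9% of all genes tested (50.1% were apart in either direction). At day 30 only CCL4 was, against 23.3% of all genes (34.5% in either direction). The median log2 difference of the 7 was 3.14 at day 14, beside 0.258 over all genes, and 0.531 at day 30, beside 0.178. IL6 enters the day 14 median with a value that depends on the pseudocount, as its controls were listed at 0. Since grafts and controls had guided the choice of the genes, nothing is read from these shares. Under other scalings the median of all genes at day 14 lay between -0.0225 and 0.0901, and all 7 mediators stayed above it. At day 30, 6 of the 7 were above 0 as deposited and under TPM scaling, and 5 under median-of-ratios and quantile scaling, where PTX3 changed sign.

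**Figure D2:**
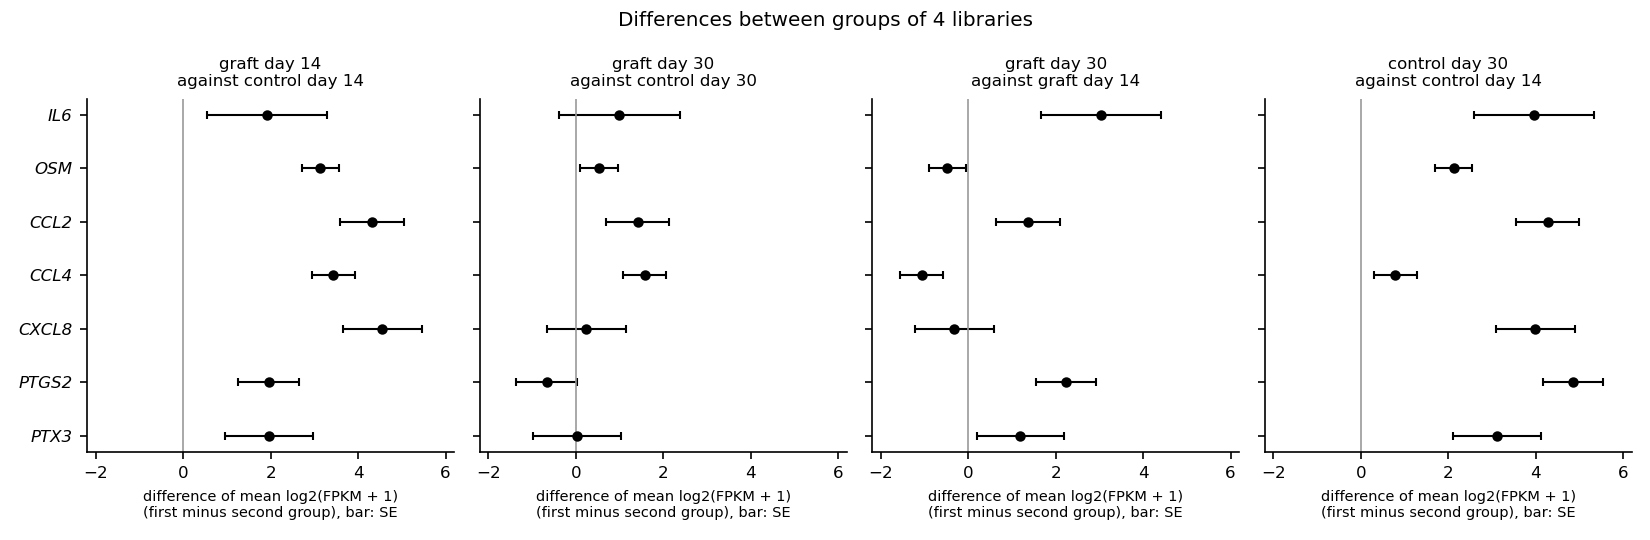
Difference of group means of log2(FPKM + 1), first minus second group, with limma's SE as bars, for each mediator in 4 contrasts. The day 14 panel lies wholly to the right of 0, the SE bars of IL6, CXCL8, PTGS2 and PTX3 cross 0 in the graft against control day 30 panel, and the panel of the 2 control groups runs from 0.79 for CCL4 to 4.85 for PTGS2; IL6 against control day 14, listed at 0, depends on the pseudocount.

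The control groups differed from each other. Higher in every control day 30 library than in every control day 14 library were IL6, CCL2, CXCL8 and PTGS2, 4 of the 7, as were 12.8% of all genes (22.8% in either direction). The median log2 difference, control day 30 minus control day 14, was 3.96 for the 7 and 0.0484 for all genes. Control replicates 2 and 3 carried most of the difference for IL6, CXCL8 and PTX3, and all of it for CCL4. IL6 without them was 1.08 and 0.13 FPKM. The difference without them was 0.33 instead of 3.12 for PTX3 and 1.62 instead of 3.99 for CXCL8. For PTGS2 it was 3.66 instead of 4.85 and for CCL2 2.41 instead of 4.27, so these 2 genes were well above control day 14 in replicates 1 and 4 also. CCL4 gave -0.031 instead of 0.79. OSM differed by 2.13 with all libraries, and control day 30 replicates 1 and 4 held 0.19 and 6.8 FPKM. Time after surgery and any other way in which the 2 control groups were handled cannot be told apart.

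The split among the day 30 controls was wide. The median range of the 7 within the group was 4.34 on the log2 scale, beside 0.575 for all genes, and 5 of the 7 spanned at least 3, as did 228 genes (2.63%). Differences among these libraries had guided the choice of the genes, so nothing is read from their ranges or shares. In the day 30 grafts the median range was 1.77, beside 0.572. Control replicate 3 held the highest value of its group for all 7 mediators, as it did for 29.5% of all genes. Graft day 30 replicate 1 held the highest value of its group for 5 mediators and for 23.4% of all genes. Control replicate 2 stood between the others. Over 2745 genes averaging at least 10 FPKM in the group, it was matched best by 0.1 of replicate 1, 0.5 of replicate 3 and 0.4 of replicate 4, with a median absolute log2 difference of 0.0836. These weights gave 112.5 FPKM for IL6, where 111.14 FPKM was observed, and the ratio of observed to weighted level ran from 0.903 for OSM to 1.17 for CCL2. Graft day 30 replicate 4 was matched by 0.3, 0.35 and 0.35 of replicates 1, 2 and 3 with ratios of 0.784 to 0.986. Why a library lay this close to a weighting of the others was not tested, and n counts such libraries as separate.

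**Figure D3:**
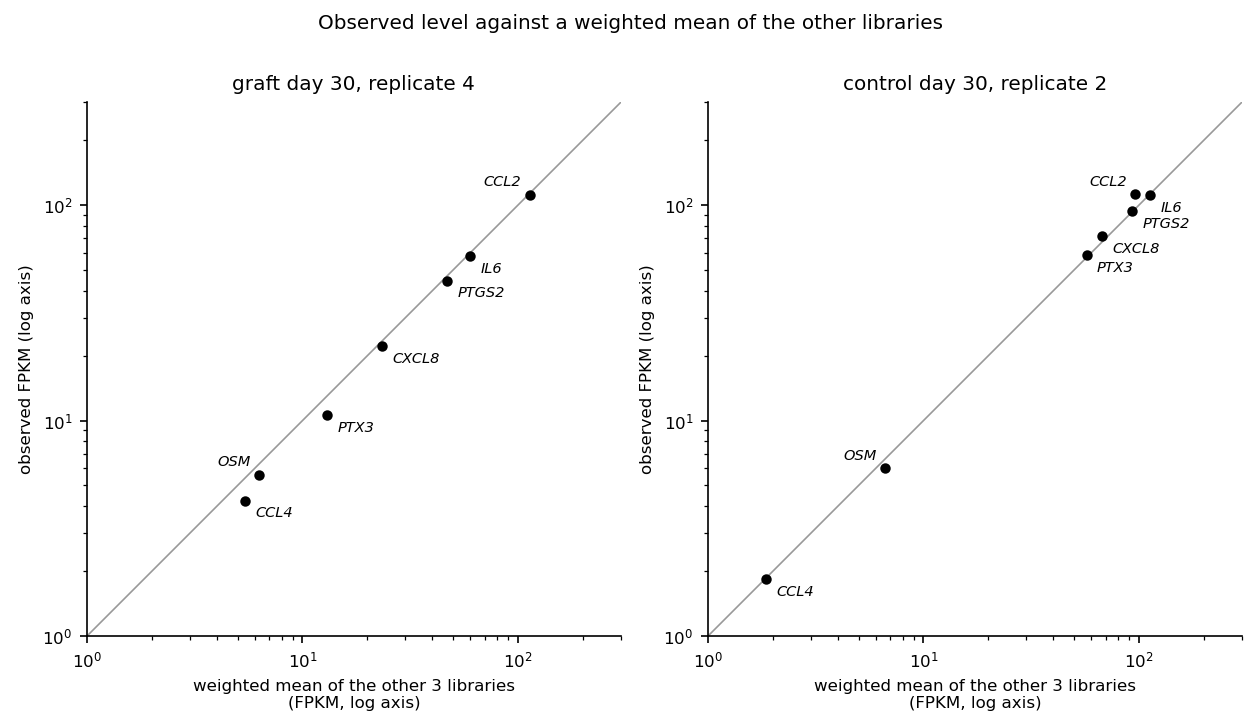
Observed FPKM of the 7 mediators in graft day 30 replicate 4 (left) and control day 30 replicate 2 (right) against the level predicted by weighting the group's remaining 3 libraries, both on log axes. The line marks equality, and all points lie within a ratio of 0.784 to 1.17 of it.

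The genes most like each mediator were named by the mean absolute difference of median-centred log2(FPKM + 1) over the 20 libraries. Closest to IL6 were ADAMTS4 (0.684), an aggrecan-cleaving protease, SELE (0.924), the endothelial adhesion molecule E-selectin, and RNF122 (0.989). Closest to PTX3 were RNF122 (0.508), DUSP5 (0.52), a phosphatase of ERK, and TNFAIP3 (0.544), the NF-kappa-B inhibitor A20. TNFAIP6 (0.851), VCAM1 (0.935) and BIRC3 (0.99) were closest to CXCL8, and RNF122 (0.772), IER3 (0.926) and VCAM1 (0.95) to CCL2. SELE was 17.73, 3.26, 6.62 and 6.04 FPKM in graft day 30, against 0.2, 50.48, 94.97 and 0.22 FPKM in control day 30. TNFAIP3 was 23.18, 4.17, 8.17 and 10.68 FPKM in graft day 30, against 1.3, 29.98, 59.85 and 0.96 FPKM in control day 30. In both genes graft replicate 1 and control replicates 2 and 3 were the high libraries, as for IL6 and PTX3. Both had been picked for likeness over these same libraries, so the shared pattern follows from the choice.

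CCL4 and OSM had other neighbours in expression. CCL4 was closest to PLIN2 (0.382), a lipid droplet protein of foam cells among others, APOBR (0.402), a lipoprotein receptor of macrophages, and LCP2 (0.419), a leukocyte signalling adaptor. PLIN2 was 30.84, 31.93, 205.3 and 251.6 FPKM in graft day 14, against 6.8 to 9.63 FPKM in control day 14, with the same 2 high grafts as CCL4. Those 2 grafts were much alike over many genes, and PLIN2 was picked for its likeness to CCL4. OSM was closest to CRABP2 (0.599), RGS2 (0.617) and BHLHE40 (0.725). PTGS2 was closest to TACR1 (0.819), the substance P receptor, THRSP (0.856) and SELP (1). The closest pair among the mediators was CCL2 and CXCL8 (0.715). These 20 libraries share groups, and some lie near a weighting of others, so the values describe likeness only.

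**Figure D4:**
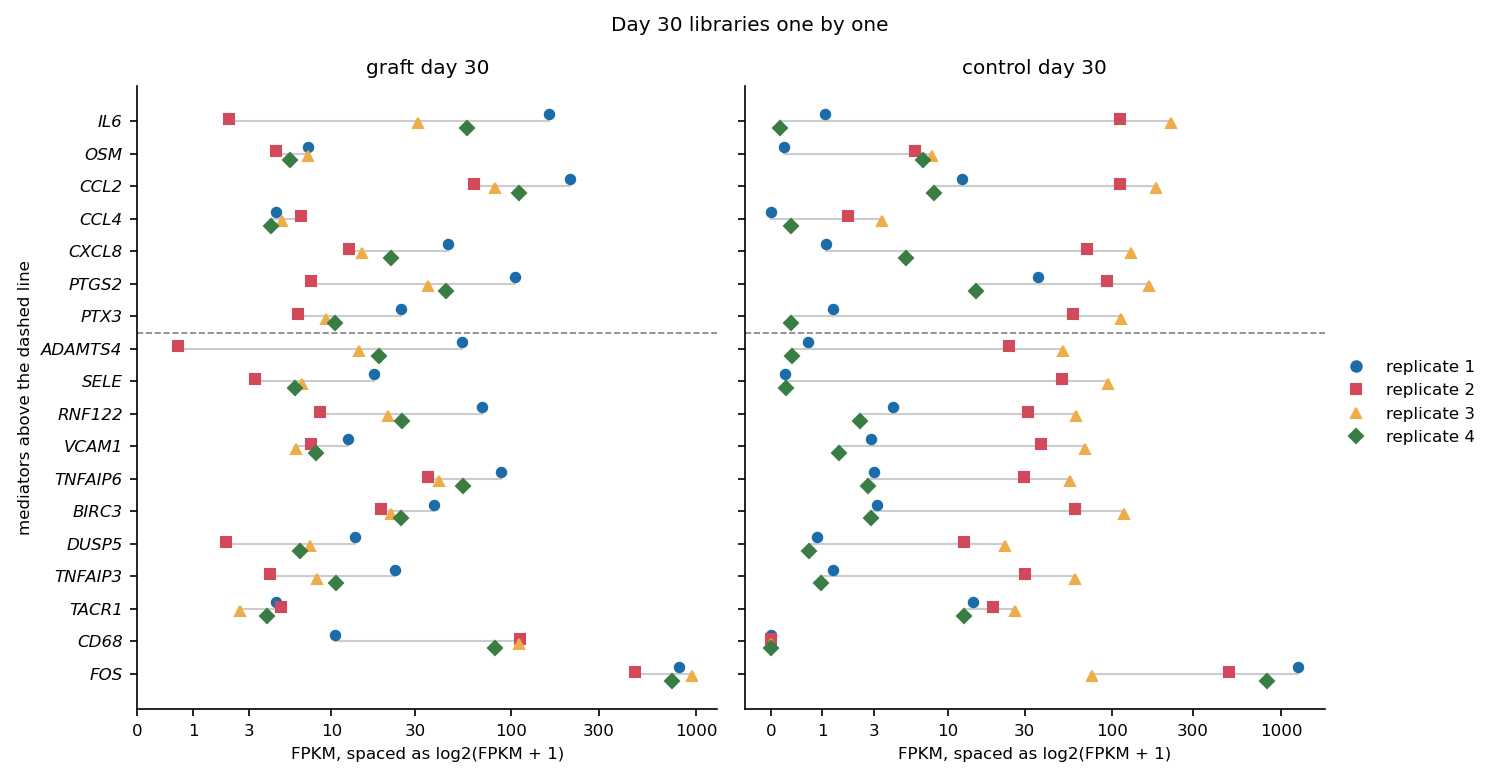
FPKM of the 7 mediators (above the dashed line), 9 of the genes most like them, CD68 and FOS in each graft day 30 library (left) and control day 30 library (right), on axes spaced as log2(FPKM + 1). Points are coded by replicate number. Control replicates 2 and 3 lie to the right for IL6, CCL2, CXCL8, PTGS2, PTX3 and the 9 genes shown as like them. IER3, close to CCL2 but not shown, was 27.52, 29.5, 46.45 and 0 FPKM in control day 30, so replicate 1 lay near replicate 2. CD68 is listed at 0 in all controls, and FOS is lowest in control replicate 3.

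Early response genes were read beside this split. FOS, an immediate early transcription factor, was 810.5, 468.1, 944 and 737.6 FPKM in graft day 30, against 1262, 490.7, 75.95 and 827.6 FPKM in control day 30. It was thus lowest in the control library with the highest IL6. ATF3, a stress-induced transcription factor, was 274.7, 61.22, 132.8 and 144.3 FPKM in graft day 30, against 76.23, 115.2, 130.8 and 100.4 FPKM in control day 30. Of 35 early response genes 26 were found and 24 tested, with 13 higher and 0 lower in control day 30 than in control day 14, against 6.28% of all genes higher and 4.45% lower. Without control replicates 2 and 3 the count was 6, and with control day 14 as 1 sample it was 0. EGR2, a zinc finger factor, was 9.6 to 16.3 FPKM in control day 30, against 0 to 0.9 FPKM in control day 14 (log2 difference 3.26, SE 0.41, adjusted p = 6.64e-05), and stayed called without those 2 libraries (adjusted p = 0.00195), but not with control day 14 as 1 sample (0.0655). In grafts against controls, 8 were higher and 2 lower at day 14 (4 and 2 with control day 14 as 1 sample, 13 and 2 without control day 30 replicates 2 and 3), against 36.5% of all genes higher and 17% lower. At day 30, 3 were higher and 1 lower (7 and 2 without those 2 controls), against 26% and 11.6% of all genes. The urokinase receptor PLAUR was higher in grafts by 4.14 at day 14 (SE 0.48, adjusted p = 1.09e-06) and by 1.93 at day 30 (SE 0.48, adjusted p = 0.00379).

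Marker sums of other cells also differed among the day 30 controls. In control day 30 the neutrophil markers summed to 11.8, 618, 1020 and 372 FPKM, led by S100A8 at 10.54, 458.4, 762.3 and 273.3 FPKM. CSF3R was 0.24, 2.4, 5.74 and 2.96 FPKM there. Both were low in replicate 1 alone, as was OSM. Endothelial markers, 7 of 7 found, summed to 74.6, 102, 149 and 47.8 FPKM and adipocyte markers, 3 of 4 found, to 9.37, 47.3, 74.5 and 8.71 FPKM, both highest in replicates 3 and 2. T cell markers summed to 0.17, 1.6, 0.73 and 3.31 FPKM, fibroblast markers to 3120, 2200, 2350 and 1580 FPKM, and Schwann cell and nerve markers to 38, 57.3, 22.6 and 77.3 FPKM, none of them highest in replicates 2 and 3. Macrophage markers summed to 4.84, 18.4, 25.1 and 9.69 FPKM, with CD68 listed at 0, and smooth muscle markers to 7200, 7020, 6030 and 8650 FPKM. In graft day 30 the library with the most IL6, replicate 1, had the lowest macrophage sum (142 FPKM beside 230 to 274 FPKM) and the lowest CD68 (10.47 FPKM beside 82.68 to 112 FPKM). CD14 was lowest there too (84.26 FPKM beside 113.3 to 125.45 FPKM). Some other macrophage markers, looked up after values had been seen, did not follow. MARCO (19.76 FPKM beside 0.08 to 4.91 FPKM) and CSF1R (1.09 FPKM beside 0.61 to 0.79 FPKM) were highest in that library. MRC1 and MSR1 were lowest in replicate 3, at 15.28 and 3.04 FPKM. The part of these cells in the mediator levels was not tested.

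The list of interleukin 1, TNF and NF-kappa-B signalling held 30 tested genes of 35 found and 37 listed. At day 14, 16 were higher and 1 lower in grafts, against 36.5% of all genes higher and 17% lower. With control day 14 as 1 sample the day 14 counts were 11 and 0, and under other scalings 14 were higher and 2 to 4 lower. At day 30, 11 were higher and 0 lower, against 26% and 11.6% of all genes. The day 30 count of higher genes was 5 under TPM scaling and 15 without control day 30 replicates 2 and 3. CD14, the lipopolysaccharide co-receptor and a macrophage marker, was 141.1 to 308.7 FPKM in graft day 14, against 3.41 to 5.07 FPKM in control day 14 (log2 difference 5.37, SE 0.35, adjusted p = 1.38e-09). NFKBIE, an inhibitor induced by NF-kappa-B, was 9.27 to 19.96 FPKM in graft day 14, against 0 to 0.53 FPKM in control day 14 (log2 difference 3.63, SE 0.25, adjusted p = 1.8e-09). IL1RN, the antagonist of interleukin 1, was 8.06, 7.23, 13.76 and 24.35 FPKM in graft day 14, against 0, 0, 0.34 and 0 FPKM in control day 14 (adjusted p = 2e-07). TLR4 was higher in grafts by 2.72 and 2.29 on the 2 days (adjusted p = 1.23e-06 and 1.93e-05). ZFP36 was not called in grafts against controls on either day. It was 205.5 to 546.1 FPKM in control day 30, against 58.23 to 65.9 FPKM in control day 14 (log2 difference 2.34, SE 0.44, adjusted p = 0.00222, and 0.322 with control day 14 as 1 sample). IL1B, picked after its values were seen, was 20.29, 3.05, 2.13 and 10.17 FPKM in graft day 30, against 0.33, 13.85, 29.72 and 8.12 FPKM in control day 30, so control replicate 1 alone was low, as for OSM.

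**Figure D5:**
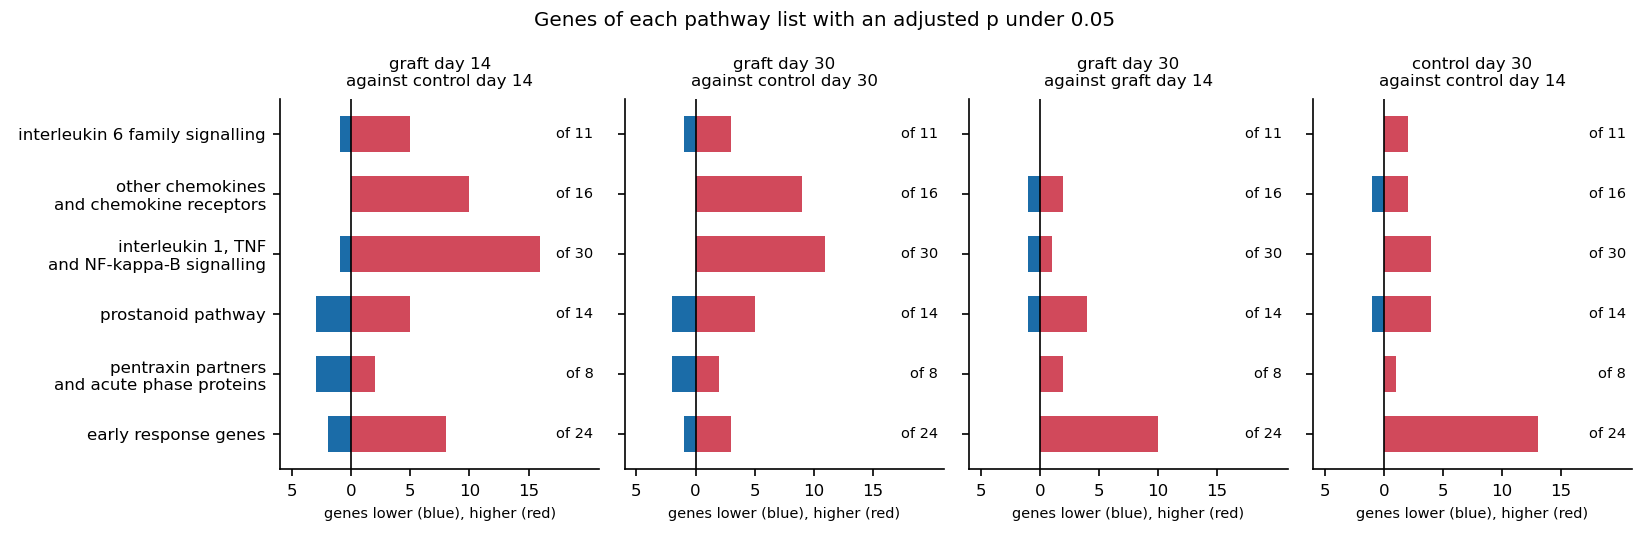
Number of genes of each pathway list with an adjusted p under 0.05 (limma) that were higher (red, right) or lower (blue, left) in the first than in the second group, with the number tested at the right of each row. Chemokines and interleukin 1, TNF and NF-kappa-B genes have the most calls higher in grafts than in controls on both days as deposited, and early response genes lead in the contrast of the 2 control groups.

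Day 30 was also compared with day 14 within grafts. The graft levels were among the values known when the genes were chosen, so the p-values of the 7 describe these samples and are no independent evidence. PTGS2 averaged 48.2 ± 41.4 FPKM in graft day 30, against 6.91 ± 2.96 FPKM in graft day 14 (SD, n = 4 each). The log2 difference was 2.23 (SE 0.69), with an adjusted p = 0.0362 by limma over all genes and p = 0.0857 by a two-sided exact permutation test, so the call rests on the spread shared by all 5 groups (adjusted p = 0.116 with only the graft groups fitted). It was called under 22 of 33 other settings, with adjusted p between 0.00494 and 0.207, and was not called without graft day 30 replicate 1 (0.13) or without the 4 libraries near a weighted mean (0.207). PTX3 was higher without overlap, 12.8 ± 8.4 FPKM in graft day 30, against 4.48 ± 1.21 FPKM in graft day 14 (log2 difference 1.19, SE 1.00). Its adjusted p by limma was 0.461, and its exact permutation p was 0.0286, the smallest that 4 against 4 allow. Of the 7 it alone was higher without overlap, as were 7.29% of all genes, while 8.46% were lower without overlap, and 1 of the 7 was called higher, as were 8.01% of all genes. Nothing is read from these counts.

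PTX3 and the other 5 mediators were not called by limma in grafts by day. IL6 was 3.04 higher on the log2 scale in graft day 30 (SE 1.37, adjusted p = 0.142, exact permutation p = 0.0857), with replicate 2 inside the day 14 range. CCL2 differed by 1.36 (SE 0.73, adjusted p = 0.222, exact p = 0.0857). CCL4 differed by -1.07 (SE 0.49, adjusted p = 0.151, exact p = 0.229), OSM by -0.48 (SE 0.42, adjusted p = 0.481, exact p = 0.0571) and CXCL8 by -0.32 (SE 0.90, adjusted p = 0.854, exact p = 0.571). Without control day 30 replicates 2 and 3, whose spread enters the shared error, the adjusted p was 0.0192 for IL6, 0.0232 for CCL2 and 0.0227 for PTX3. IL6 was also called without graft day 30 replicate 2 (0.045) and CCL4 without graft day 14 replicate 2 (0.0243). OSM was called without control day 30 replicate 1 (0.0328). Early response genes led the lists in this contrast, with 10 of 24 higher and 0 lower, against 8.01% of all genes higher and 8.31% lower, and 4 of 24 without the 4 libraries near a weighted mean. F3, tissue factor, was 41.18 to 142.4 FPKM in graft day 30, against 2.66 to 3.19 FPKM in graft day 14 (log2 difference 4.53, SE 0.32, adjusted p = 6.17e-08). ATF3 was higher by 1.96 (SE 0.32, adjusted p = 0.000605).

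The graft effect itself, graft minus control, was also compared between the days. As deposited and with all libraries, all 7 mediators had a smaller difference at day 30 than at day 14, with a median of -2.61, beside -0.0827 over all genes. Without control day 30 replicates 2 and 3 the order turned for PTX3, with 2.82 at day 30 and 1.96 at day 14. It turned for IL6 too, with 4.35 and 1.92, the latter dependent on the pseudocount as its controls were listed at 0. For IL6 it also turned when a single library was left out (up to 2.28 at day 30). This contrast holds the values that chose the genes and is a description. Of all genes, 12.9% were called in it, 5.38% with a higher and 7.57% with a lower value at day 30. Of the genes named in the pathways, ACKR1 had a larger graft effect at day 30 by 2.60 (SE 0.36, adjusted p = 0.000258). F3 was lower in grafts at day 14 by 3.71 on the log2 scale and close to controls at day 30 (-0.17), a difference between the effects of 3.54 (SE 0.45, adjusted p = 0.000114). Both stayed called with control day 14 as 1 sample (adjusted p = 0.0324 for ACKR1 and 0.0223 for F3). None of the other pathway genes named here as differing between the days did: CD14, for example, had an adjusted p of 0.0323 over all libraries and 0.305 so counted.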

How the data were processed

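Total RNA of 20 rabbit vessel samples was extracted with TRIzol and sequenced as paired ends (NovaSeq X Plus), per the labels' protocols. The authors deposited 1 table of FPKM with 24964 transcript rows; per the submitters' processing notes they used fastp, HISAT2, StringTie, RSEM and DESeq2, and versions, roles and genome build are not given in the sources used here. Counting errors are unknown, and 1981 tested genes are listed at 0 in at least 1 library.

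FPKM was summed per gene. Symbols for 613 tested genes, OSM among them, came from the RefSeq table of rabbit assembly mOryCun1.1 through the gene number, and 1137 stayed unnamed. limma 3.58.1 (R 4.3.3) fitted a mean per group over all 20 libraries to log2(FPKM + 1), with variances that follow the mean, and Benjamini-Hochberg adjustment over 8657 genes, those reaching 1 FPKM in 4 or more libraries, decided calls at 0.05, two-sided. SE is limma's. Single values between the graft days were also tested by two-sided exact permutation over samples. Markers were summed as FPKM. The fit was checked on simulated data. Tools were Python 3.11.15, numpy 2.4.6, pandas 2.3.3, scipy 1.17.1 and matplotlib 3.10.9.

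The 7 genes and all lists were chosen with earlier results of these data known. Pathway genes named are the members of each list with the smallest adjusted p for grafts against controls on each day or the highest mean, the 3 genes most like each mediator, and set early response genes and cell markers; genes outside this rule are said to be so, and a few genes it picks are left out here. Alternatives were another pseudocount, filter or scaling, the highest transcript, only the groups compared, group weights, each library left out, a replicate block, control day 14 as 1 sample, and the 4 libraries near a weighted mean left out. Leaving out control day 30 replicates 2 and 3 was added after seeing the data.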

Additional observations from a re-analysis of the deposited data

Results flagged for a closer look

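Among 320 groups of 4 libraries (64 genes in 5 groups), 23 were flagged as holding 1 library far from the other 3. The flag was Dixon's ratio of gap to range at its 95% critical value, which chance passes in about 1 in 20. Where the other 3 libraries are listed at 0 the ratio is always 1.0, however low the remaining value. The 23 include such groups, so their number cannot be set directly beside that rate. Day 14 grafts held 8 of these and day 14 controls 10, day 30 grafts held 1 and veins 4. Of the mediators, CCL2 had its ratio of 0.871 in graft day 14, where replicate 1 held 83.88 FPKM and the others 26.88 to 34.21 FPKM. OSM had 0.862 in vein, where replicate 3 held 0.42 FPKM and the others 0.13 to 0.17 FPKM.

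In graft day 14 the gap ratio was 0.871 for SOCS1, 0.966 for LTA4H, 0.873 for C1QC, 0.83 for TNFAIP6, 0.854 for ATF3, 0.836 for CRABP2 and 0.841 for SELP. In control day 14 it was 0.9 for SOCS1, 0.909 for CXCR4, 0.94 for CCL21, 0.873 for TLR4 and 0.907 for FOS, and 1.0 for IL1RN, CD3D, SELE, IER3 and THRSP, each with 3 libraries listed at 0. In graft day 30 it was 0.895 for ACKR1. In vein it was 0.84 for S100A9 and 1.0 for ADAMTS4 and IER3, again with 3 libraries listed at 0.

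The effect of grafting differed between day 30 and day 14 by limma's interaction term for 12 named genes. It was larger at day 30, on the log2 scale, for ACKR1 by 2.60 (adjusted p = 0.000258), and closer to 0 for genes lower in grafts, F3 by 3.54 (0.000114) and PTGS1 by 1.22 (0.0117). For genes higher in grafts it was smaller at day 30: CXCR4 -1.96 (0.0471), CCR7 -1.06 (0.0277), CD14 -1.71 (0.0323) and NFKBIE -1.17 (0.0342). Likewise TNFRSF1B gave -1.43 (0.00722), IL1RN -2.03 (0.0139), TBXAS1 -0.89 (0.0414), PLAUR -2.21 (0.0392) and EGR2 -2.33 (0.0125).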

How the results depend on the processing

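With control day 14 counted as 1 sample, called genes numbered 2499 for grafts against controls at day 14, 93 for the difference of graft effects, 29 for control day 30 against control day 14 and 2036 for vein against controls. Between the graft days they numbered 424 without the 4 libraries near a weighted mean, 757 with group weights, 321 with only the groups compared and 828 under TPM scaling. For the difference of graft effects they were 381 without those 4 libraries and 557 under TPM scaling. Between the control groups they were 433 without those 4 libraries, 560 without control day 30 replicates 2 and 3, and 1536 with group weights.

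Leaving out each library in turn gave 4307 to 4701 calls (graft day 14 against control), 2864 to 3476 (graft day 30 against control), 918 to 1658 (graft days), 865 to 1405 (difference of effects), 627 to 1103 (control days) and 2756 to 3420 (vein). Between the graft days the differences then ran from 2.25 to 4.15 for IL6, -0.57 to -0.37 for OSM, 1.03 to 1.70 for CCL2, -1.56 to -0.72 for CCL4, -0.72 to -0.094 for CXCL8, 1.69 to 2.91 for PTGS2 and 0.83 to 1.44 for PTX3. At day 30, grafts against controls ran from -0.26 to 2.28 for IL6, -0.15 to 0.81 for OSM, -0.82 to 1.17 for CXCL8, -1.26 to 0.014 for PTGS2 and -1.03 to 1.12 for PTX3, so their sign rests on single libraries.

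No pairing by replicate number was seen: same-numbered deviations correlated at -0.18 to 0.127, and 2 of 8 samples correlated best with their own number. The check could not exclude such pairing. The control day 14 libraries were nearly identical, so their deviations were small, and some libraries lay near a weighting of others. The replicate block gave 4573 calls at day 14, 3186 at day 30, 1298 between graft days, 1047 for the difference of effects, 857 between control days and 3121 for vein. PTGS2 between the graft days had an adjusted p = 0.0557 with the block.

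Scaling moved the split of higher and lower calls. Graft day 14 against control gave 3161 and 1473 as deposited, 2369 and 2140 by median of ratios, 2136 and 1652 as TPM and 2192 and 2280 by quantiles. Day 30 gave 2253 and 1000, then 1719 and 1455, 1270 and 1256, 1482 and 1690. Graft days gave 693 and 719, then 722 and 550, 750 and 78, 641 and 679. Control days gave 544 and 385, then 512 and 553, 846 and 137, 421 and 551. Vein gave 2178 and 1036, then 1616 and 1526, 1635 and 869, 1601 and 1431. The difference of effects gave 466 and 655, then 601 and 524, 288 and 269, 515 and 473.

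A pseudocount of 0.1 made the day 14 differences of mean log2 values 4.78 for IL6, 5.40 for OSM, 5.23 for CCL2, 5.56 for CCL4, 6.69 for CXCL8, 2.67 for PTGS2 and 3.28 for PTX3. It made CCL4 2.81 in grafts against controls at day 30, and OSM 3.88 and CCL4 1.59 between the control groups. TPM scaling gave 2.68 for IL6, 3.89 for OSM, 5.28 for CXCL8 and 2.37 for PTX3 at day 14, quantile scaling 2.80 for OSM and 1.604 for PTX3, and the highest transcript 1.44 for PTGS2. Without control day 30 replicates 2 and 3 the day 30 differences were 4.35 for IL6, 3.27 for CCL2, 2.40 for CCL4, 2.61 for CXCL8 and 2.82 for PTX3. Between the control groups they were then 0.62 for IL6, 2.41 for CCL2, -0.031 for CCL4, 1.62 for CXCL8, 3.66 for PTGS2 and 0.33 for PTX3. SELP at day 30 then turned to 1.10 (limma adjusted p = 0.000408).

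Between the graft days the exact permutation p was 0.0286 for OSM with the highest transcript (-0.49) and quantile scaling (-0.53) and for PTGS2 with the highest transcript (2.21). For PTX3 it was 0.0571 with quantile scaling (1.20) and 0.1 without the 4 libraries (1.22). Of the member differences with no test, 280 moved by less than 1 SD and 28 by more. For the changes listed, the cause was not tested beyond the fewer samples or genes that a setting uses.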
